A study of Mus musculus with 6 samples.

Results

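Cdx1, Cdx2 and Cdx4, Msgn1, Nkx1-2 and Evx1 encode transcription factors of the tail bud and of the presomitic mesoderm (PSM) that leaves it. They were examined as a group by taking every probe set of the deposited array table that the platform annotation gives exactly 1 of these symbols. The rule found 6 probe sets among 19551 that are not array controls, and they covered 5 of the 6 genes, out of 10290 genes that the table names in this way. Cdx2 had 2 probe sets, Cdx1, Cdx4, Nkx1-2 and Evx1 had 1 each, and Msgn1 was not analysed here because no probe set carried its name. The series measured anterior PSM of mouse embryos at embryonic day 8.75 on genome-wide Affymetrix arrays, in 3 mutant and 3 control pools of 3 PSMs each, all on a C57BL6/6J background as the labels spell it. Mutant pools were R26R AC/AC;T-Cre and control pools were R26R AC/AC, so that both genotypes carried the AC allele at ROSA26 and only mutants carried T-Cre.

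In T-Cre embryos the promoter of T (Brachyury) drives Cre recombinase, and it is active in the primitive streak and the mesoderm it forms. The labels do not spell out AC; from what is known of the study it stands for A-CREB, a protein that blocks DNA binding by CREB family members and that Cre switches on. No pool carried T-Cre without the AC allele, so effects of Cre and of AC cannot be told apart. Before RNA was taken, the posterior 1/3 of the PSM was cut away and the anterior 2/3 was kept. The signals below therefore come from the part of the PSM farther from the tail bud, and the tail end where these genes are best known was not on the arrays. In such bulk tissue, fewer cells of a type and less RNA per cell cannot be told apart.

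As background, the mouse embryo lengthens at its tail end from a pool of progenitors that give rise to spinal cord and to paraxial mesoderm. Wnt and FGF signals keep this pool going, and retinoic acid from the formed somites opposes them. The 3 Cdx genes are the mouse relatives of the fly gene caudal; they pattern the trunk through Hox genes and keep the posterior growth zone active together with Wnt signalling. Nkx1-2 is a homeobox gene of the progenitor zone beside the streak, Evx1 is an even-skipped relative expressed in the streak and tail bud, and Msgn1 is a basic helix-loop-helix factor that moves cells into the PSM.

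Sequences upstream of the members are shown first because the CREB family, which the series names in its title, binds a known DNA word, the cyclic AMP response element. RefSeq promoters of GRCm38.p6, each running from 250 bases before to 50 bases after the gene start, were in the table used for 5 of the 6 genes, 4 of them measured. Of these 5, the Cdx4 promoter held the full element TGACGTCA, which starts 61 bases before the gene start on the strand of the gene. TGACGTCA reads the same on both strands, and 1.79% of all 32851 promoters of this length in the table held it. Among the 5966 genes with a promoter there whose signal was tested below, Cdx4 included, the share was 3.99%. The promoters of Cdx2, Cdx4 and Evx1 each held the octamer ATGCAAAT on 1 of the strands, the word bound by POU homeodomain proteins, at 147, 93 and 126 bases before the start. Of all promoters, 1.74% held that octamer. Capitals below mark the octamer and, in Cdx4 only, also the cyclic AMP response element. The sequences are written along the strand of the gene, the whole window for Cdx4 and 40 bases around the octamer for Cdx2 and Evx1, where the octamer of Evx1 lies on the opposite strand and so reads ATTTGCAT.
Cdx4, chrX:103321148-103321447, plus strand: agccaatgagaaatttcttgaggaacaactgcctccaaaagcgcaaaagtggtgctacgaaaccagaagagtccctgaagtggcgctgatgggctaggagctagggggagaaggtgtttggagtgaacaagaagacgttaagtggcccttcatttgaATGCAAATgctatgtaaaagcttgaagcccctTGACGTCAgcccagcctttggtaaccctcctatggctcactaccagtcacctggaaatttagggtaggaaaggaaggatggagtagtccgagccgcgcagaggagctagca
Cdx2, chr5:147307373-147307412, minus strand: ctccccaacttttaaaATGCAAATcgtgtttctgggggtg
Evx1, chr6:52313356-52313395, plus strand: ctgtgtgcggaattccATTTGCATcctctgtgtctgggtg

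Further words were searched on both strands of the same windows. The TCF and LEF core CTTTGA, the word of Wnt response, occurred in the promoter of Msgn1, starting 202 and 143 bases before the start, and in 16% of all promoters. The caudal core TTTATG also occurred in Msgn1, 85 bases before the start, and in 11.9% of all promoters. The core AGGTCA bound by retinoic acid receptors, found in 16.3% of all promoters, had no match in these members' windows, and Nkx1-2 had none of the 5 words. These words were chosen with the sequences and earlier results in view, and a match is a description of letters. No match says only that the letters are not in this window.

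In mutant PSM, 0 of the 6 member probe sets passed the test, limma with Benjamini-Hochberg adjusted p under 0.05 over all tested probe sets, while 0.690% of the 11731 tested probe sets did. Cdx4 stood lowest, at 0.74-fold of control (95% confidence interval 0.59 to 0.93, adjusted p = 0.227, n = 3 pools per genotype), and was the 1 member probe set with unadjusted p under 0.05, as were 13.6% of all tested probe sets. Cdx1, Evx1 and the brighter Cdx2 probe set had values 0.83-, 0.85- and 0.85-fold of control, and Nkx1-2 and the other Cdx2 probe set had 0.99- and 1.01-fold. All 6 probe sets lay above the filter on low signal, so none was left out. Signals are linear and scaled by the authors, and levels of different probe sets cannot be set against each other.

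Cdx4, the X-linked caudal gene, gave signals of 1570, 2003 and 1870 in mutant pools 1, 2 and 3, against 2926, 2162 and 2318 in control pools 1, 2 and 3. All 3 mutant values lay below all 3 control values. Means were 1814 ± 222 in mutant and 2469 ± 404 in control (SD, n = 3 each). The log2 difference, mutant minus control on log2 of signal plus 1, was −0.44 (SE 0.15, adjusted p = 0.227 by limma). The gap between the groups was narrow, since the highest mutant pool and the lowest control pool read 2003 and 2162. Cdx4 was the 1 member probe set of 6 whose groups did not overlap, against 20.0% of all tested probe sets in either direction and 10.5% lower in mutant.

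Cdx2, a caudal gene of the tail bud, hindgut and trophoblast, was read by 2 probe sets that behaved differently. The probe set 1422075_at gave 3971, 4627 and 6228 in mutant pools 1, 2 and 3, against 5265, 6034 and 5924 in control pools. Mutant pools 1 and 2 lay below every control pool and mutant pool 3 above every one, so the groups overlapped. Its means were 4942 ± 1161 in mutant and 5741 ± 416 in control, and its log2 difference was −0.24 (SE 0.16, adjusted p = 0.552 by limma). The probe set 1422074_at gave 755, 1032 and 1134 in mutant pools, against 575, 1062 and 1416 in control pools, with a log2 difference of 0.010 (SE 0.30, adjusted p = 0.992 by limma). Here control pool 1 was the lowest and control pool 3 the highest of all 6 arrays, and the control values spanned a 2.46-fold range. Its 95% confidence interval ran from 0.63- to 1.60-fold, so that neither a drop nor a rise of the size seen for Cdx4 lay outside it.

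Cdx1, the caudal gene known to respond to Wnt and retinoic acid, gave 359, 330 and 674 in mutant pools 1, 2 and 3, against 536, 486 and 540 in control pools. Mutant pools 1 and 2 were the lowest of the 6 arrays, and mutant pool 3 was the highest. The mutant pools thus spanned a 2.04-fold range and the control pools a 1.11-fold range. Means were 455 ± 191 in mutant and 521 ± 30.2 in control, and the log2 difference was −0.27 (SE 0.25, adjusted p = 0.696 by limma).

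**Figure D1:**
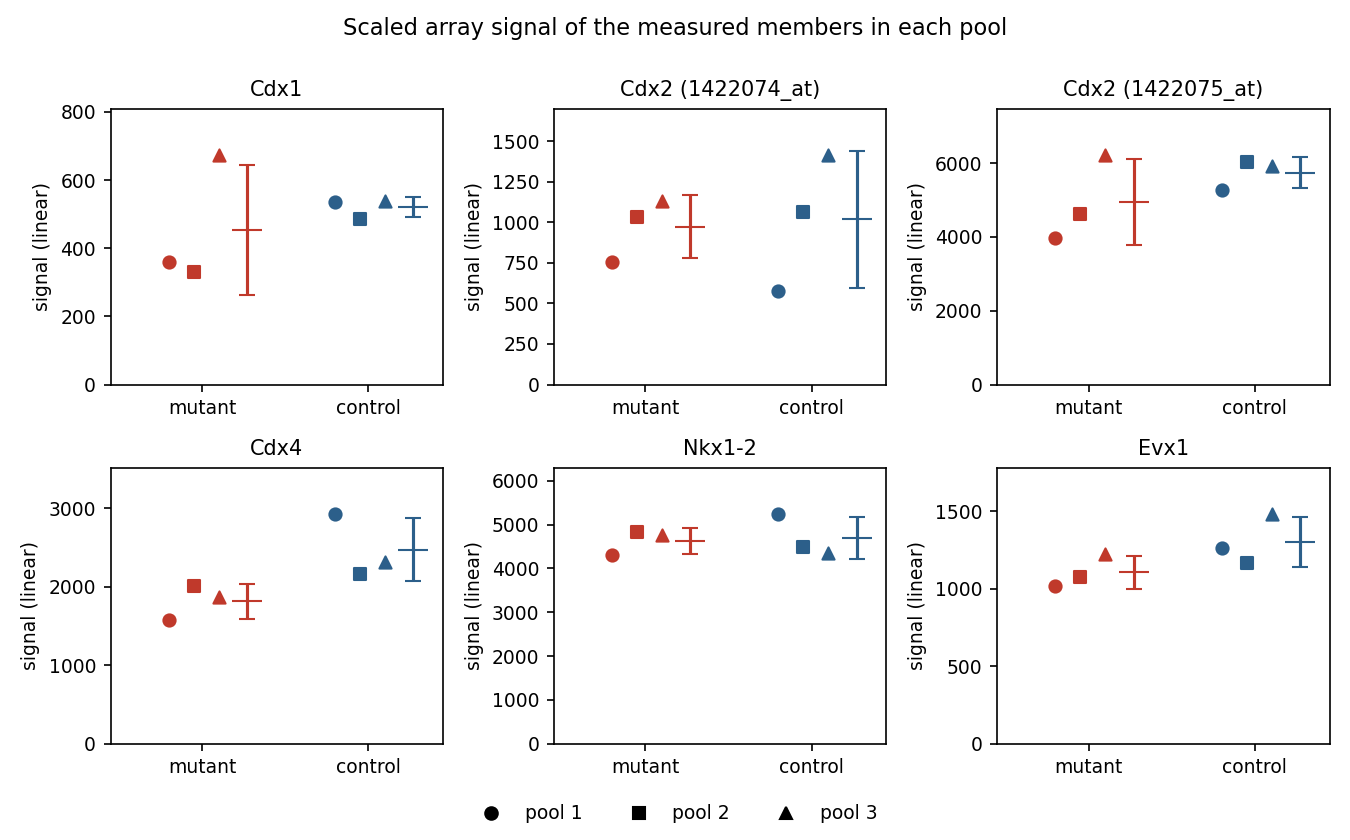
Linear array signal (vertical axes, from 0) of the 6 member probe sets in each mutant and control pool, with symbols for pools 1 to 3 and a bar for the mean ± SD of 3 pools. Mutant pools of Cdx4 lie at 1570 to 2003, below control pools at 2162 to 2926, and the other panels overlap.

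Nkx1-2, the progenitor gene, gave 4297, 4840 and 4759 in mutant pools, against 5247, 4480 and 4364 in control pools. The groups interleaved, with means of 4632 ± 293 in mutant and 4697 ± 480 in control. Its log2 difference was −0.017 (SE 0.11, adjusted p = 0.966 by limma), and the 95% confidence interval ran from 0.84- to 1.17-fold, the narrowest among the members. A fall as deep as the central value of Cdx4, 0.74-fold, lay outside that interval; whether the Nkx1-2 and Cdx4 differences differ was not tested.

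Evx1 gave 1018, 1075 and 1225 in mutant pools, against 1261, 1167 and 1484 in control pools. The overlap came from 1 pair, mutant pool 3 above control pool 2. Means were 1106 ± 107 in mutant and 1304 ± 163 in control, with a log2 difference of −0.23 (SE 0.14, adjusted p = 0.490 by limma). The antisense gene next to it, Evx1os, gave 336, 460 and 671 in mutant pools, against 652, 685 and 920 in control pools. Its log2 difference was −0.66 (adjusted p = 0.215 by limma at the gene level), with mutant pool 3 inside the control range. Whether probes of Evx1 and Evx1os share sequence was not tested. The gene Hoxa9 on the same side of Evx1 had −0.033 and Hibadh on the other side 0.075.

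Tested neighbours of the other members were looked up in the RefSeq order of genes (assembly GRCm38.p6). Around Cdx4, Chic1 had a log2 difference of −0.11 and Xist, the RNA that silences an X chromosome, 0.11, while Cited1, a transcriptional cofactor on the other side, had −0.48 (adjusted p = 0.155 by limma). Xist read 11330, 8978 and 6016 in mutant pools, against 4911, 9201 and 10701 in control pools, a wide and overlapping range. Around Cdx2, Polr1d had 0.12 and Pan3 −0.11, and around Nkx1-2, Oat had −0.099 and Lhpp 0.043. Cdx1 lies between Tcof1, which had −0.079, and Pdgfrb, a growth factor receptor, which had −0.22. No tested neighbour had an adjusted p below that of Cited1.

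The arrays were of like brightness, with a median signal of 491 to 535, and Pearson's r between any pair of arrays, taken across probe sets and so not over independent units, was 0.975 to 0.991. They parted by the ratio of 3' to 5' signal of the spiked dap control transcript, which was 19.6 to 23.8 in mutant 1, mutant 2 and control 1 and 10.2 to 12.2 in mutant 3, control 2 and control 3. Several markers of the PSM had signals above the filter: mean signal in control was 550 for Tbx6, 3284 for Dll1, 2115 for Dll3 and 1045 for Hes7. Lfng, at 236, lay below it. Some genes expressed in other tissues gave signal too. In control pools Sox2 of neural tube and progenitors read 3658, Krt8 of simple epithelia 5579, and the embryonic globin Hbb-bh1 14304. Further markers lay below the filter, among them Sox1 (170) and Pax6 (211) of neural tube, Trp63 (223) of surface ectoderm, and Gata1 (81.7) and Klf1 (102) of blood. Which tissues the pools held was not tested.

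Of the 5 measured members, Cdx2 split by the dap ratio, and Cdx1, Cdx4, Nkx1-2 and Evx1 overlapped between the sets of arrays. Both Cdx2 probe sets were lower on every array above a ratio of 15 than on every array below it, at 3971 to 5265 against 5924 to 6228 for 1422075_at and 575 to 1032 against 1062 to 1416 for 1422074_at. Of all tested probe sets, 16.3% were split in that direction and 28.9% in either. The part of the ratio in the genotype differences was not tested beyond the following values. Within the arrays above 15, which are 2 mutant and 1 control, the log2 difference was −0.72 for Cdx4, −0.64 for Cdx1, −0.27 for Evx1, −0.20 for Nkx1-2, and −0.30 and 0.62 for the brighter and dimmer Cdx2 probe sets. Within the arrays below 15, which are 1 mutant and 2 control, it was −0.26 for Cdx4 and −0.10 for Evx1 but 0.40 for Cdx1, 0.11 for Nkx1-2, and 0.059 and −0.11 for the same Cdx2 probe sets. Cdx4 and Evx1 kept a negative sign in both sets. With the ratio added to the model as a block, chosen after the data were seen, Cdx4 had −0.49 (SE 0.13, adjusted p = 0.0422 by limma) and so passed the test, as did 555 probe sets in all.

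**Figure D2:**
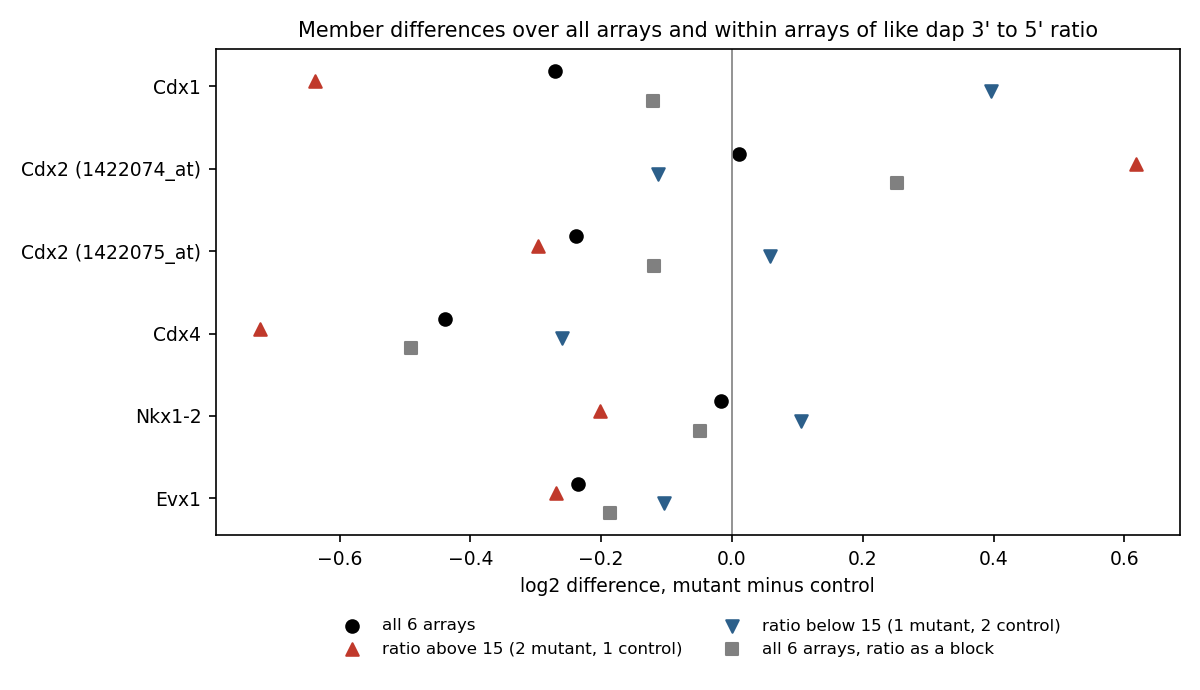
Log2 difference, mutant minus control (horizontal axis), of each member probe set over all 6 arrays, within arrays above a dap ratio of 15, within arrays below it, and with the ratio as a block. Cdx4 stays between −0.72 and −0.26 in all 4, Evx1 is negative in all 4, and Cdx1, Nkx1-2 and both Cdx2 probe sets fall on both sides of 0.

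Mutant pool 3, the mutant array with the low dap ratio, was the mutant pool with the highest value for Cdx1, Evx1 and both Cdx2 probe sets. Taking 1 probe set per gene, the median distance of the 5 members from the control mean was −0.53 in mutant 1, −0.29 in mutant 2 and 0.024 in mutant 3 on the log2 scale. Over all 7245 tested genes the same medians were −0.024, −0.018 and 0.0057. Mutant 3 was the highest mutant pool for 3 of the 5 members and for 39.8% of all tested genes.

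Across the 6 arrays the members did not follow 1 pattern. As a description over 6 arrays that share genotype and spike-in differences, Pearson's r of log2 signal was 0.85 between Cdx1 and the brighter Cdx2 probe set, 0.65 between Cdx4 and Nkx1-2, and 0.63 between Cdx4 and Evx1. The 2 Cdx2 probe sets had r = 0.51 with each other. Genes most like each member in this measure were Ube2g1 (r = 0.997), Bclaf3 and Dbf4 for Cdx4, Rpap3 (r = 0.977), Dst and Mtpap for Cdx1, and Nfx1 (r = 0.996), Sox12 and Usp8 for the brighter Cdx2 probe set. For the dimmer one they were Zfp869 (r = 0.989), Prpf4 and Tatdn1, for Nkx1-2 Exo5 (r = 0.993), Sec61b and Rtcb, and for Evx1 Auh (r = 0.992), Lyst and Pcgf3. With 6 arrays such values are common: 235 of 7132 genes had r over 0.9 with Cdx4, and 29 did with Evx1.

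The genes around the members in the tail bud programme were read from lists, with 1 probe set per gene and the same model over 7245 genes, of which 123, or 1.70%, changed, 43 higher (0.594%) and 80 lower (1.10%). Their median log2 difference was −0.013, and the 5 members had a median of −0.24 with 5 of 5 below 0, as were 52.4% of all genes. At the probe set level 5 of 6 were below 0, as were 50.4% of all tested probe sets. In the gene level fit Cdx4 had adjusted p = 0.172 by limma, against 0.227 in the probe set fit. Of 13 tested genes of tail bud progenitors, 0 changed by limma, 3 had unadjusted p under 0.05, as did 1089 of all 7245 tested genes, and the median was −0.23. Wnt3a, the tail bud Wnt ligand that Cdx genes work with, gave 303, 353 and 472 in mutant pools, against 558, 444 and 593 in control pools, with a log2 difference of −0.51 (SE 0.19, adjusted p = 0.234 by limma). Sp5, a zinc finger target of Wnt signalling, gave 735, 678 and 1136 in mutant pools, against 1175, 1142 and 1149 in control pools (−0.48, adjusted p = 0.240 by limma). Mutant pool 3 of Sp5 was thus just below the control pools and the other mutant pools far below.

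Fgf8, the FGF ligand of the growth zone, had a log2 difference of −0.31 (adjusted p = 0.602 by limma), and Cyp26a1, which breaks down retinoic acid in the tail bud, −0.36 (adjusted p = 0.624). Cyp26a1 gave 1465, 2521 and 3918 in mutant pools, against 3104, 2476 and 4015 in control pools, so that its spread was wide in both genotypes. Wnt5a had −0.23 and Epha5, an ephrin receptor, −0.38, while Sox2, which marks neural tube and progenitors alike, had 0.23 (adjusted p = 0.526 by limma). T was not analysed here, as no probe set carried its name.

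**Figure D3:**
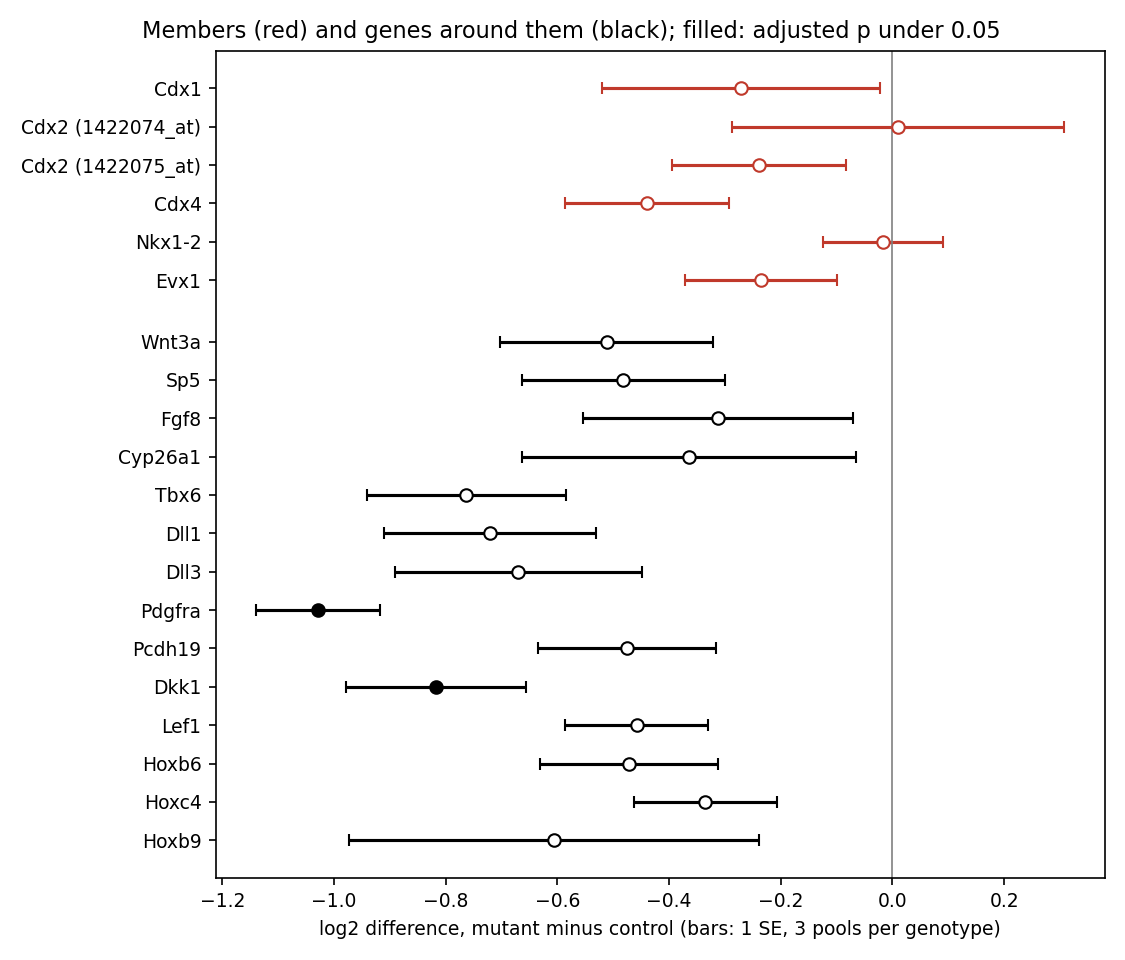
Log2 difference, mutant minus control, with bars of 1 SE (3 pools per genotype), for the 6 member probe sets in red, from the probe set fit. In black are 14 genes picked from the lists of the tail bud programme, from the gene level fit. All 14 lie below 0. Genes of these lists above 0, such as Aldh1a2 (0.44), Spry2 (0.36) and Sox2 (0.23), are not drawn. Below 0 were 10 of 13 tail bud progenitor genes, 10 of 12 posterior PSM genes, 13 of 18 pathway genes and 8 of 12 Hox genes. Filled symbols, Pdgfra at −1.03 and Dkk1 at −0.82, had adjusted p under 0.05, and Cdx4 at −0.44 lies beside Wnt3a, Sp5 and Lef1.

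Of 12 tested genes of the posterior PSM, the tissue that Msgn1 specifies, 1 fell, 11 did not pass, and the median was −0.30. The 1 that fell was Pdgfra, a growth factor receptor of early and paraxial mesoderm, with 1441, 1488 and 1673 in mutant pools, against 3129, 3318 and 2934 in control pools (−1.03, SE 0.11, adjusted p = 0.00172 by limma). Tbx6, the T-box regulator that holds cells to the paraxial fate, gave 297, 275 and 412 in mutant pools, against 501, 607 and 541 in control pools (−0.76, adjusted p = 0.0617). Among Notch ligands, Dll1 had −0.72 (adjusted p = 0.0937) and Dll3 −0.67 (adjusted p = 0.176), while Pcdh19, a protocadherin, −0.48 (adjusted p = 0.186). Pdgfra, Tbx6, Dll1 and Hes7, 4 of the 12, had every mutant pool below every control pool, as did 11.5% of all tested genes (832 of 7245). For Dll3 mutant pool 3 overlapped control pool 1.

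Of 18 tested genes of the Wnt, FGF and retinoic acid pathways that act on Cdx genes, 1 fell, 17 did not pass, and the median was −0.14. Dkk1, a secreted Wnt inhibitor, gave 566, 601 and 804 in mutant pools, against 997, 1221 and 1232 in control pools (−0.82, SE 0.16, adjusted p = 0.0357 by limma). Its call was lost without mutant 1 (adjusted p = 0.172), mutant 2 (0.164), control 2 (0.107) or control 3 (0.133). Lef1, the DNA-binding partner of beta-catenin, had −0.46 (adjusted p = 0.114), Etv5, an FGF target, −0.48 (adjusted p = 0.124), and Aldh1a2, which makes retinoic acid, 0.44 (adjusted p = 0.214).

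Of 12 tested trunk and posterior Hox genes, the best known targets of Cdx factors, 0 changed by limma and 3 had unadjusted p under 0.05, against 1089 of all 7245 tested genes. Their median was −0.18, with 8 of 12 below 0. Hoxb6 gave 870, 714 and 915 in mutant pools, against 1038, 1037 and 1411 in control pools (−0.47, adjusted p = 0.186 by limma). All mutant pools lay below all control pools for 3 of the 12, Hoxb6, Hoxc4 (−0.33, adjusted p = 0.250) and Hoxc8 (−0.12), as they did for 11.5% of all tested genes. Hoxc5 had −0.37, Hoxd8 −0.40, Hoxb9 −0.61 with a wide SE of 0.37, and Hoxa9 −0.033. Of the genes of kin to the members, Mesp1 and Mesp2 were below the filter, and Evx2, Nkx1-1, Gsx1, Gsx2 and Pdx1 were not analysed here.

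**Figure D4:**
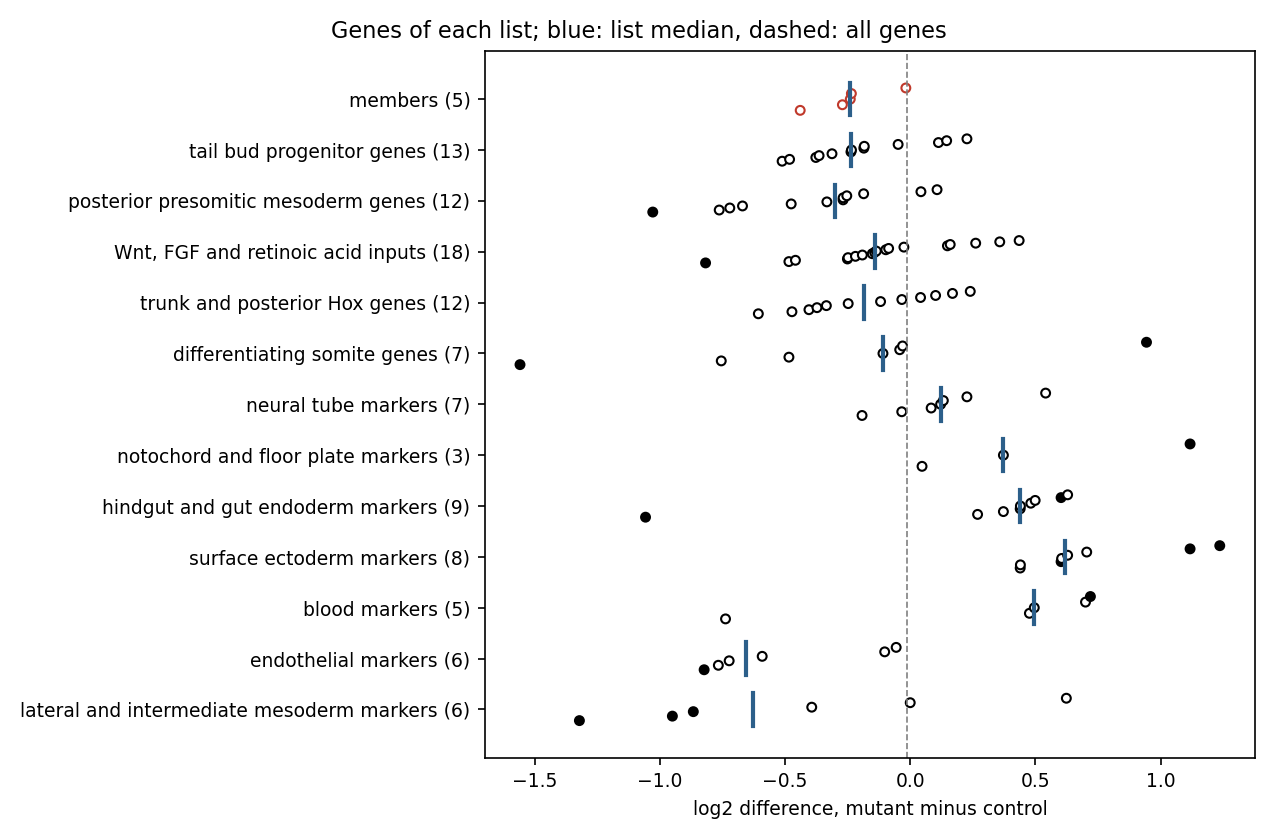
Log2 difference, mutant minus control, of each tested gene (circles, filled where adjusted p was under 0.05) in the members and the lists, with list medians in blue, the median of all genes as a dashed line, and the number tested in brackets. The 4 lists of the tail bud programme have medians of −0.30 to −0.14, gut and surface ectoderm markers 0.44 and 0.62, and endothelial markers −0.66.

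Of 7 tested genes of the differentiating somite, 6 were below 0, as were 52.4% of all tested genes, and the median was −0.11. Pax3 of the dorsal somite and neural tube rose (0.94, adjusted p = 0.0145 by limma), Ripply2 of the somite boundary fell (−1.56, adjusted p = 0.000622), and 5 did not pass. Among those 5 were Foxc1 (−0.48, adjusted p = 0.315) and Foxc2 (−0.75, adjusted p = 0.274). With the filter at the 60th percentile, 0 genes of this list changed. The call of Pax3 was lost without mutant 1 (0.0941) or mutant 2 (0.0635).

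Markers of other tissues are given because the members are also expressed outside the mesoderm, Cdx2 in hindgut and Cdx1, Evx1 and Nkx1-2 in neural tissue. Of 9 tested hindgut and gut endoderm markers 8 were above 0, 1 rose, Epcam (0.60, adjusted p = 0.0196 by limma), and 1 fell, Sox17 (−1.06, adjusted p = 0.0250), with a list median of 0.44. Of all tested genes, 52.4% were below 0. The summed signal of the gut markers was 23249 to 24972 in mutant pools, against 16922 to 18018 in control pools. Its largest parts were Krt8 (mean 7566 in mutant, 5579 in control) and Krt18 (6382 and 4718), which are on the surface ectoderm list too. Foxa1 (0.27) and Foxa2 (0.37) did not pass. All 8 surface ectoderm markers, which share 4 genes with the gut list, were above 0, and 3 rose: Krt19, Perp and Epcam. Trp63, Tfap2c, Grhl2 and Grhl3 of that list lay below the filter. In the fit without a filter they had 1.04, 0.81, 0.55 and 0.29. The brighter and dimmer Cdx2 probe sets had log2 differences of −0.24 (SE 0.16) and 0.010 (SE 0.30). Whether Cdx2 signal moved with the gut or surface ectoderm markers was not tested. Of 7 tested neural tube markers 0 changed by limma, 2 were below 0, and 1 had unadjusted p under 0.05, a share near that of all tested genes (1089 of 7245). Their summed signal was 15825 to 19556 in mutant pools, against 17161 to 19861 in control pools. Sox1 and Pax6 lay below the filter and are not in these counts. In the fit without a filter their log2 differences were 0.59 and 0.68. Pax6 read 289 to 415 in mutant pools, against 192 to 230 in control pools. Pax3, of dorsal somite and neural tube, was counted on the somite list only, where it rose (0.94). Of 6 lateral and intermediate mesoderm markers 4 were below 0 and 3 fell, Prrx1, Hand2 and Foxf1. Bmp4 of that list had 0.62 (adjusted p = 0.258 by limma). All 6 endothelial markers were below 0, and Kdr fell. Of 5 blood markers Car2 rose, and 1 was below 0, Tal1 (−0.74, adjusted p = 0.141 by limma). Of 3 notochord and floor plate markers Krt19 rose. For markers below the filter, the fit without one gave Lhx1 0.43, Emcn 0.77, Sox7 −0.68, Sox18 −0.69, Gata1 0.40 and Klf1 0.74. Of the called markers of these tissues, Prrx1 kept its call without any 1 array. The calls of Epcam, Sox17, Krt19, Perp, Foxf1, Kdr and Car2 were lost without mutant 1, mutant 2 or control 2, and those of Epcam, Sox17, Krt19, Foxf1 and Car2 also without control 3. Hand2 lost its call without mutant 1 (adjusted p = 0.0522), and Car2 also without the intensity trend (adjusted p = 0.0507). The part of these tissues in the member signals was not tested.

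The cyclic AMP response element of the Cdx4 promoter was also found in other tested genes. Of 5966 tested genes with a promoter in the table, 238 held TGACGTCA, and 12 of these, or 5.04%, changed, 1 higher and 11 lower in mutant. Over all 5966 genes 103, or 1.73%, changed. The median log2 difference was −0.084 in the 238 genes and −0.012 in all. For the octamer ATGCAAAT, 82 tested genes held it, 3, or 3.66%, changed (1 higher, 2 lower), and the median was −0.027. The caudal core was held by 435 tested genes, of which 10, or 2.3%, changed. Of 802 with the TCF and LEF core 8, or 0.998%, changed, and of 813 with the core AGGTCA 15, or 1.85%. These counts are descriptions; a window that holds the letters is not shown to be bound, and Cdx4 itself is among the 226 of the 238 genes that did not pass.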

How the data were processed

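Each of the 6 arrays held RNA of 1 pool. Per the submitters' processing notes the authors used Affymetrix Expression Console and MAS5; they deposited 1 linear intensity per probe set and array, with settings and scaling target not given in the sources used here. The authors' scaling was kept. Signals were taken as log2 of signal plus 1, and the filter removed probe sets with a mean under the 40th percentile, at a geometric mean of 349, which left 11731 probe sets and, with the brightest probe set per gene, 7245 genes. Mutant and control were compared with limma 3.58.1 in R 4.3.3 (two-sided, empirical Bayes moderation with a trend on intensity, p-values adjusted by Benjamini-Hochberg, threshold 0.05). The number of arrays limits the precision. The labels call the pools biological replicates. Members, lists and words searched in promoters were chosen with earlier results of these data known. Named genes were the members, T, Wnt3a, Fgf8, Cyp26a1, Tbx6 and Dll1, the called genes and up to 4 genes per list with the smallest p, and the 3 genes most like each member; chromosomal neighbours were added after values were seen, as were further genes given as examples. Of 19551 probe sets, 17348 had exactly 1 symbol. Alternatives tried were offsets of 16 and 64 before the log, no trend, quantile normalization or median centring, a stricter filter or none, array weights, replicate block, mean of probe sets, no _x_at and _s_at probe sets, leaving out each array, and the spike-in ratio.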

Additional observations from a re-analysis of the deposited data

How the results depend on the processing

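The sign of Cdx4 and Evx1 was negative under every alternative run. Cdx4 passed the test with array weights (−0.40, adjusted p = 0.0466) and with the spike-in ratio block (−0.49, adjusted p = 0.0422), so that 1 member changed in each of these fits, and it moved to −0.72 within the arrays above a dap ratio of 15. Within the arrays below it, Cdx1 reversed to 0.40, 1422075_at of Cdx2 to 0.059, 1422074_at to −0.11 and Nkx1-2 to 0.11, and within those above it Nkx1-2 moved to −0.20. The 1422074_at value also reversed with quantile normalization (−0.0036), median centring (−0.020) and array weights (−0.49), and Nkx1-2 with quantile normalization (0.013) and array weights (0.041); the cause was not tested. Without 1 array at a time, the difference ranged from −0.53 to −0.31 for Cdx4 (adjusted p 0.211 to 0.602), −0.31 to −0.14 for Evx1, −0.59 to −0.079 for Cdx1, −0.42 to −0.094 for 1422075_at, −0.35 to 0.30 for 1422074_at and −0.068 to 0.065 for Nkx1-2. Of all probe sets, 81 changed, against 48 with a filter at the 60th percentile, 1196 with array weights, 555 with the spike-in block and 23 to 151 without 1 array (23 without mutant 1, 28 without mutant 2, 151 without mutant 3, 28 without control 2 and 26 without control 3). Of the 6 lists of the tail bud and somite programme, 4 genes changed, against 2 with the stricter filter, 21 with array weights, 10 with the spike-in block and 2 to 9 without 1 array (2 without mutant 1 or mutant 2, 9 without mutant 3 and 8 without control 1). The labels give same-numbered pools no more than a shared number. Their deviations from the group means correlated at 0.20, −0.45 and 0.37, against −0.56 to 0.50 for mutant and control pools of unlike number. With 3 pools per group, whose deviations are tied to each other, these values cannot show whether pools were paired. With the replicate block 120 probe sets changed and Cdx4 had adjusted p = 0.272 by limma.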
